A study of Mus musculus with 8 samples.

Results

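Otx2, Gbx2, Hesx1, Dmbx1 and Gsc encode homeobox transcription factors best known from the front end of the embryo, and they are described here over all 8 arrays of a study of mouse embryonic stem cells. They were chosen by the change of their signal after OHT: on these same arrays Otx2 and Gbx2 were lower and Hesx1, Dmbx1 and Gsc were higher after 4-hydroxytamoxifen (OHT). The direction of that change therefore selected the genes, and its values are given as a description with no test. All probes of the genes were found through the RefSeq accession that the array design gives each probe. Each gene had 1 probe, which makes 5 of the 21150 genes that could be named on the array, and all 5 were among the 15178 genes tested.

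The 8 samples form 4 groups of 2 arrays: cells labelled ERF knockout given OHT for at least 2 days, untreated cells labelled ERF knockout, ERF wild type cells given OHT for at least 2 days, and untreated ERF wild type cells. All groups carry null alleles of H-Ras and N-Ras (H-Ras-/- and N-Ras-/-) and RERTert/ert, an allele that supplies an OHT-inducible Cre recombinase, and grew on gelatin in serum with LIF. OHT takes away the remaining RAS function, and with it the ERK signal that holds ERF, an ETS family repressor, in the cytoplasm. No OHT group keeps RAS, so the effect of OHT itself and that of losing RAS cannot be told apart. Each sample was a mix of 2 clones. The same cell pool was sampled with and without OHT, A2 and B2 for the labelled knockout and A1 and B1 for the wild type, so a line between the 2 conditions of a pool is a comparison within the same cells.

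Homeobox factors bind DNA through a homeodomain and set regional identity in the embryo. OTX2 specifies forebrain and midbrain and, in pluripotent cells, helps drive the exit from the naive state toward the formative one. GBX2 is its opponent at the midbrain-hindbrain boundary, where each represses the other, and in mouse embryonic stem cells it is a target of LIF and STAT3 that favours self-renewal. HESX1, needed for forebrain and pituitary, and GSC (goosecoid), a factor of the organizer, are repressors that recruit Groucho (TLE) corepressors. DMBX1 is a paired-type factor of the developing diencephalon and midbrain.

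Promoter sequences of the 5 genes are shown because ERF belongs to the ETS family, whose members share the core motif GGAA. Each window holds the 250 bases before an annotated start, from RefSeq on build GRCm38.p6, read 5′ to 3′ on the gene's strand. Capitals mark GGAA on either strand, so that TTCC is the same motif on the opposite strand. All 5 genes matched. Otx2 had 4 annotated starts, of which the outermost is shown, and the other genes had 1 each.
Otx2, chr14:48667645-48667894, minus strand: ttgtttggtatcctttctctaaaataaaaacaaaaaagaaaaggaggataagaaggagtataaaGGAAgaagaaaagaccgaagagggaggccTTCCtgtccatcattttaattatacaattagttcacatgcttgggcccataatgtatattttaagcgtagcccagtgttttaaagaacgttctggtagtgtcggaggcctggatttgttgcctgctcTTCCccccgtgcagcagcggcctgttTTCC
Gbx2, chr1:89931177-89931426, minus strand: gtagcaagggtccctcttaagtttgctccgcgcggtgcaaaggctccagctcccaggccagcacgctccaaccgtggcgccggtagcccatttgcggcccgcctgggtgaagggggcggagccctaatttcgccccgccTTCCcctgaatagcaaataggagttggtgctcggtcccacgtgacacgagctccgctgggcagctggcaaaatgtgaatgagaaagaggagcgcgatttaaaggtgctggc
Hesx1, chr14:27000112-27000361, plus strand: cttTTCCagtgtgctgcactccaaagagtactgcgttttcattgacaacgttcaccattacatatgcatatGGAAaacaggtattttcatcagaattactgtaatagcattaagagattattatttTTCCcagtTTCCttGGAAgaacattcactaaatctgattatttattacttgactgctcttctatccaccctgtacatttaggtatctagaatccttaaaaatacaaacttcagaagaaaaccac
Dmbx1, chr4:115939927-115940176, minus strand: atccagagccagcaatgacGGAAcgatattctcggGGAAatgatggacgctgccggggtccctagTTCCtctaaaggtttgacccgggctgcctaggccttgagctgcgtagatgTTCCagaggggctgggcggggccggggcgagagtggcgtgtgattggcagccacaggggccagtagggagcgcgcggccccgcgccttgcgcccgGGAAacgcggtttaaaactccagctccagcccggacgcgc
Gsc, chr12:104473237-104473486, minus strand: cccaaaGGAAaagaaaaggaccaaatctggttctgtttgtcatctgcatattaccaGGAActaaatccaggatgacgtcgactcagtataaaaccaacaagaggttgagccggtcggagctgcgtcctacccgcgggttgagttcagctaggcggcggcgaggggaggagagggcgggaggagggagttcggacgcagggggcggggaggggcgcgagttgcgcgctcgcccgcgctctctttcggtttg
The windows held 4 copies of GGAA for Otx2, 1 for Gbx2, 5 for Hesx1, 5 for Dmbx1 and 2 for Gsc. Of all 32851 promoter windows of this length, 93.4% held at least 1 copy, with a median of 3, so its presence sets none of the 5 apart. The longer ETS motif CCGGAA, found in 12.0% of all windows, was in none of the windows of these genes. TAATCC, the motif that OTX2 and goosecoid bind, was in 6.25% of all windows and, among these genes, only in the window of the third Otx2 start, with 1 copy. The STAT motif TTCNNNGAA, found in 7.02% of all windows, likewise had 1 copy there and none in the other windows. Both strands were searched for every motif, and a match in letters is not a binding site. The windows differed widely in base composition, from 34% G and C for Hesx1 to 65.2% for Dmbx1, against a median of 52.4% over all windows.

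The share of spots well above background was 54.0 to 63.6% per array, 0 spots were saturated, and precision is limited by the number of arrays. Slide 1 held 6 arrays and slide 2 held both arrays of pool B1, with 1 scan per slide. Levels are log2 of the processed signal minus the array's 75th percentile, so 0 is the 75th percentile of that array, and levels of different genes are not compared since each rests on a different probe. Erf read 3.73 and 5.13 in the labelled knockout after OHT (pools A2 and B2), 3.25 and 5.42 in the untreated labelled knockout, 4.79 and 4.73 in the wild type after OHT (pools A1 and B1), and 4.91 and 5.21 in the untreated wild type. Pool A2 was thus low in Erf while pool B2 was at the wild type level. The sources used here do not place the Erf probe relative to the deletion, so it does not check the labels. All 10 embryonic stem cell markers, among them Pou5f1, Sox2 and Nanog, were well above background on all 8 arrays. No spot of the 5 homeobox genes lay in a dark patch or carried an outlier flag.

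Otx2 and Gbx2 were lower after OHT in all 4 pools. Otx2 had a processed signal of 1308 and 789.9 in the labelled knockout after OHT (A2 and B2), 3652 and 3222 in the untreated labelled knockout, 1233 and 836 in the wild type after OHT (A1 and B1), and 4091 and 3635 in the untreated wild type. On the scaled log2 level these were 1.50 and 0.73 after OHT against 2.90 and 2.81 untreated in the labelled knockout, and 1.04 and 1.10 after OHT against 3.07 and 3.33 untreated in the wild type. In both genotypes every OHT array was below every untreated array. This separation, like that of the other genes below, lies in the change by which the genes were chosen. Its share over all genes was not counted. The change averaged -1.74 ± 0.49 in the labelled knockout and -2.13 ± 0.14 in the wild type (log2, SD, n = 2 pools each), which is 3.34-fold and 4.38-fold lower. Pool A2, with -1.39, changed least of the 4 pools, and the others were between -2.23 and -2.03.

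Gbx2 had a processed signal of 521 and 1134 in the labelled knockout after OHT, 2063 and 5181 in the untreated labelled knockout, 1069.9 and 533 in the wild type after OHT, and 3701 and 3868 in the untreated wild type. The scaled log2 levels were 0.17 and 1.25 after OHT against 2.07 and 3.50 untreated in the labelled knockout, and 0.84 and 0.45 after OHT against 2.93 and 3.42 untreated in the wild type. Again no OHT array reached an untreated array of its genotype. The change averaged -2.07 ± 0.24 in the labelled knockout and -2.53 ± 0.62 in the wild type (log2, SD, n = 2 pools each), or 4.20-fold and 5.77-fold lower. Within the labelled knockout the pools differed by more than 1 log2 unit in level but by 0.35 in change, pool A2 being the lower one under both conditions. Here, as for all these genes, fewer cells expressing the gene and less RNA per cell cannot be told apart in bulk RNA.

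**Figure D1:**
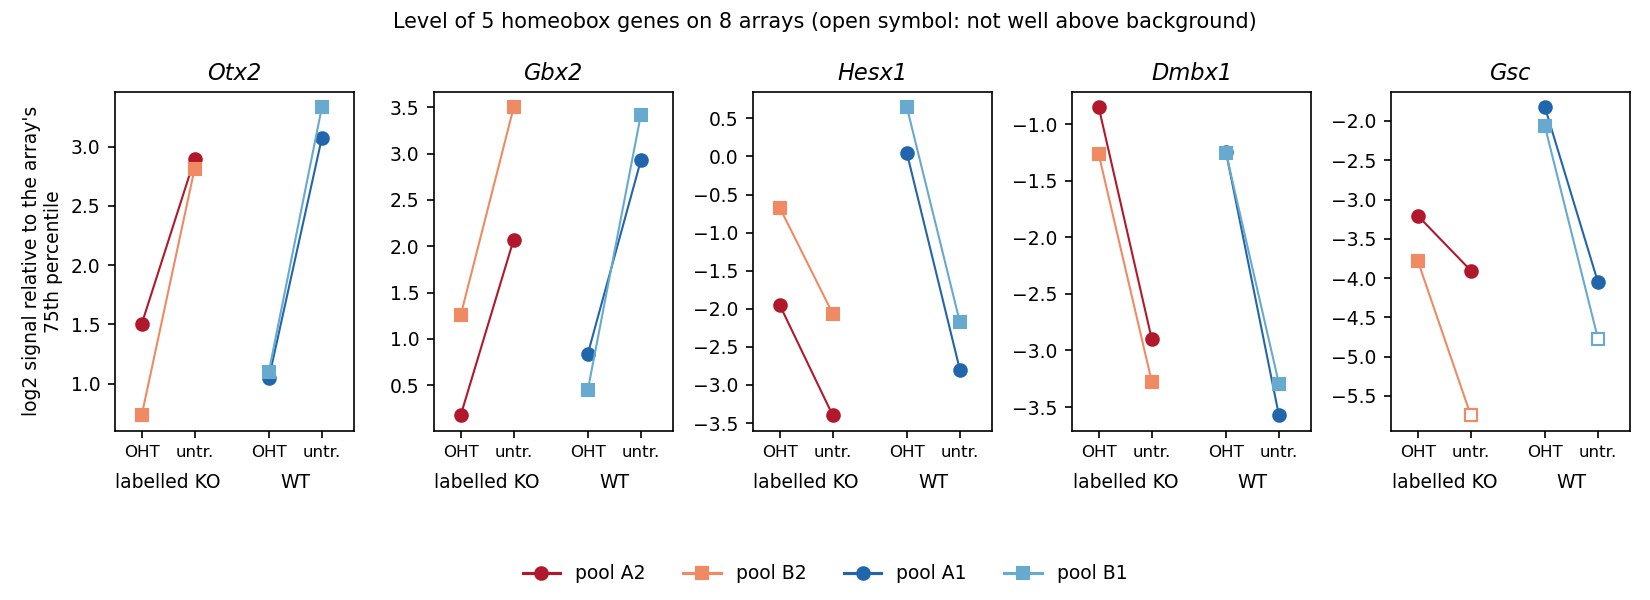
Level of each gene on each of the 8 arrays, as log2 signal relative to the array's 75th percentile; lines join the 2 arrays of a cell pool, and open symbols are not well above background. Otx2 and Gbx2 are lower after OHT in all 4 pools and the other genes higher, and Hesx1 and Gsc after OHT lie lower in the labelled knockout (KO) than in the wild type (WT).

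Hesx1 was higher after OHT in all 4 pools. As measured, its change was nearly the same in the pools of a genotype and smaller in both labelled knockout pools than in both wild type pools. The difference of changes between genotypes, given below, did not pass over all genes (adjusted p 0.260 in a paired limma fit). Its processed signal was 119 and 298 in the labelled knockout after OHT, 46.5 and 109.6 in the untreated labelled knockout, 616 and 609.6 in the wild type after OHT, and 69.8 and 79.9 in the untreated wild type. The scaled log2 levels were -1.95 and -0.67 after OHT against -3.40 and -2.06 untreated in the labelled knockout, and 0.04 and 0.64 after OHT against -2.80 and -2.18 untreated in the wild type. In the labelled knockout the ranges of the groups nearly touch, with pool A2 after OHT just above pool B2 untreated, while in the wild type they are far apart. The change was 1.45 in pool A2 and 1.39 in pool B2, against 2.85 in pool A1 and 2.82 in pool B1. The mean changes are 2.68-fold in the labelled knockout and 7.12-fold in the wild type, and on the log2 scale the labelled knockout's was 50.1% of the wild type's. With normexp background correction in place of the scanner's, the changes were 0.84 and 2.01. Leaving out single arrays, which breaks a pair, gave 0.75 to 2.09 in the labelled knockout and 2.52 to 3.15 in the wild type.

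Dmbx1 was higher after OHT by nearly the same amount in every pool. Its processed signal was 256 and 198 in the labelled knockout after OHT, 65.8 and 47.3 in the untreated labelled knockout, 253 and 164 in the wild type after OHT, and 40.9 and 36.8 in the untreated wild type. The scaled log2 levels were -0.85 and -1.27 after OHT against -2.90 and -3.27 untreated in the labelled knockout, and -1.24 and -1.25 after OHT against -3.57 and -3.29 untreated in the wild type. The 4 OHT arrays are together and apart from the 4 untreated ones, whatever the genotype. The change averaged 2.03 ± 0.03 in the labelled knockout and 2.19 ± 0.20 in the wild type (log2, SD, n = 2 pools each), or 4.08-fold and 4.56-fold. These are low signals, and the background correction sets the size: with normexp the changes were 1.29 and 1.05.

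Gsc was the dimmest of the measurements, well above background on 6 of 8 arrays, and its change varied most between pools. Its processed signal was 50.03 and 34.6 in the labelled knockout after OHT, 32.8 and 8.53 in the untreated labelled knockout, 168 and 92.9 in the wild type after OHT, and 29.3 and 13.2 in the untreated wild type. The untreated arrays of pools B2 and B1 were not well above background, so Gsc was measured in 1 of 2 arrays of each untreated group. The scaled log2 levels were -3.21 and -3.78 after OHT against -3.90 and -5.75 untreated in the labelled knockout, and -1.83 and -2.07 after OHT against -4.05 and -4.77 untreated in the wild type. The OHT arrays were above the untreated ones in both genotypes, but in the labelled knockout by little, since pool B2 after OHT was close to pool A2 untreated. The change was 1.62-fold in pool A2 and 4.67-fold in pool A1. For the other pools it is a bound against the dimmest probe well above background: at least 2.25-fold in pool B2 and at least 4.70-fold in pool B1. As measured, the mean changes were 1.33 ± 0.90 in the labelled knockout and 2.46 ± 0.34 in the wild type (log2, SD, n = 2 pools each). With normexp they were 0.28 and 0.74, and leaving out single arrays gave 0.41 to 2.25 and 2.10 to 2.82.

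**Figure D2:**
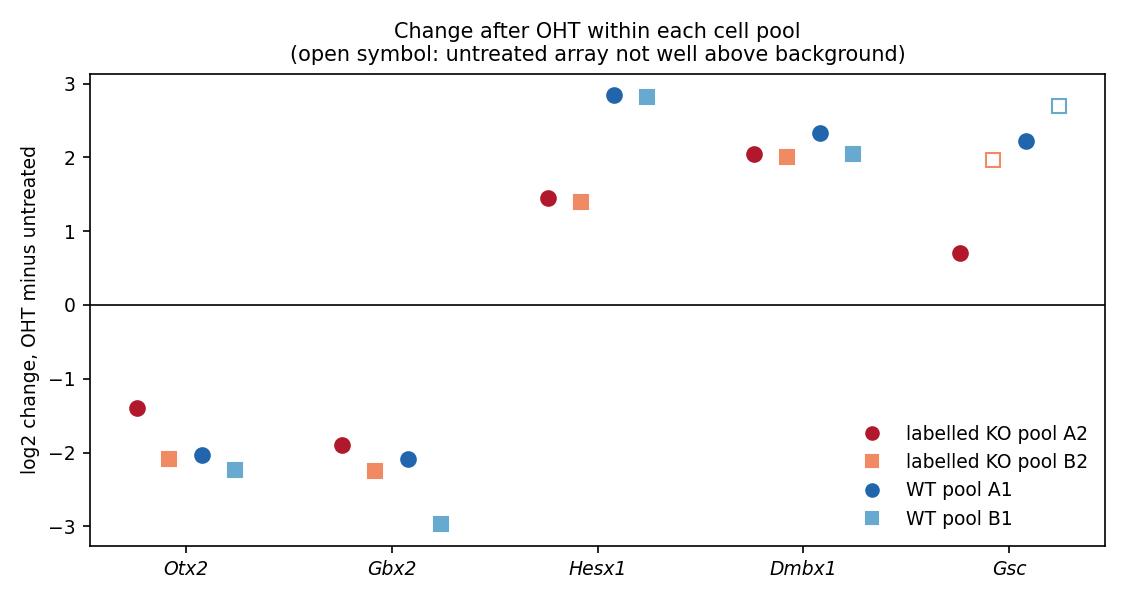
Change after OHT (log2, OHT minus untreated) of each gene in each of the 4 cell pools; an open symbol marks a pool whose untreated array was not well above background. Hesx1 is near 1.4 in both labelled knockout pools and near 2.8 in both wild type pools, while Dmbx1 lies between 2.01 and 2.33 in all 4.

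Over the 4 groups, Otx2 averaged 1.12 in the labelled knockout and 1.07 in the wild type after OHT, below 2.86 and 3.20 untreated, and Gbx2 0.71 and 0.64, below 2.79 and 3.17. Hesx1 averaged -1.31 in the labelled knockout and 0.34 in the wild type after OHT, and -2.73 and -2.49 untreated. Gsc averaged -3.49 and -1.95 after OHT, and -4.82 and -4.41 untreated, so both genes were highest in the wild type after OHT, while their untreated groups overlap and have no set order. Dmbx1 averaged -1.06 and -1.25 after OHT, and -3.09 and -3.43 untreated. Among groups next to each other in level, the genotypes overlapped on single arrays in Otx2, Gbx2 and Dmbx1 after OHT and in Gbx2, Hesx1 and Gsc untreated, and no other neighbouring groups overlapped.

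Gsc is also known from the primitive streak, and Otx2 from anterior endoderm and neural tissue, so markers of such cells were read on the same arrays. Of 9 streak and mesendoderm markers, T, Mixl1 and Evx1 were not measured above background, and the mean level of the other 6 was -2.98 to -2.01 in the labelled knockout after OHT, -2.86 to -2.04 in the untreated labelled knockout, -2.85 to -2.35 in the wild type after OHT and -2.93 to -2.39 in the untreated wild type. Those ranges overlap in both genotypes, and the median change of the list was 0.06 in the labelled knockout and 0.11 in the wild type. Neural progenitor markers (6 of 8 measured, Neurog2 and Olig2 not) had a median change of 0.40 in the labelled knockout and 0.18 in the wild type, and endoderm markers (8 of 9 measured, Afp not) of -0.06 and -0.13. Trophoblast markers (6 of 8 measured, Elf5 and Tpbpa not) had median changes of -0.11 and 0.04, 2-cell-like markers (4 of 7 measured) of -0.19 and -0.22, and embryonic stem cell markers of 0.47 and 0.64. Fibroblast markers, all 10 measured, had median changes of 0.50 in the labelled knockout and 0.08 in the wild type, with mean levels of 1.27 to 1.52 after OHT against 1.03 to 1.34 untreated in the labelled knockout. The part of such cells in the changes of the homeobox genes was not tested.

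Whether ERF status altered the response was asked by the difference of the changes, labelled knockout minus wild type. It is made from the same changes by which the genes were chosen, so it is not independent of that choice. Hesx1 differed by -1.41 (SE 0.88, 95% interval -3.58 to 0.76, limma unadjusted p 0.161), its change being smaller in the labelled knockout, and leaving out single arrays gave -2.08 to -0.74. For Gsc the measured difference was -1.13, but the changes of pools B2 and B1 are only bounds, so neither its size nor its sign is determined. Otx2 differed by 0.39 (SE 0.40, interval -0.60 to 1.38, limma p 0.369), Gbx2 by 0.46 (SE 0.82, interval -1.57 to 2.48, p 0.597) and Dmbx1 by -0.16 (SE 0.34, interval -0.99 to 0.67, p 0.653). With single arrays left out the Otx2 difference ranged from 0.006 to 0.78. That of Gbx2 turned to -0.26 without the untreated array of pool A2 and to -0.08 without the OHT array of pool B2. That of Dmbx1 turned to 0.03 and 0.05 without the same arrays, and to 0.25 with normexp. With limma on group means and Benjamini-Hochberg adjustment over all 15178 genes, none of the 5 passed 0.05 (adjusted p 1.00 each), and neither did any other gene, 0% called, with 195 genes under an unadjusted p of 0.05. Within slide 1, where pool A1 alone stands for the wild type, the differences were -1.43 for Hesx1, 0.29 for Otx2, 0.02 for Gbx2 and -0.30 for Dmbx1. The measured Gsc difference was -0.46 with normexp and, larger in size than that of Hesx1 there (-1.48), -1.73 with quantile normalization. The interval from the group means allows a Hesx1 response in the labelled knockout that is much smaller than, or somewhat larger than, the wild type's.

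That fit ignores that each pool was sampled under both conditions. A paired fit took the pool as a block, dropped the spots lying in dark patches, and estimated the variance robustly with a trend. In it the Hesx1 difference of -1.41 had an SE of 0.20 and a 95% interval of -1.90 to -0.93 (limma unadjusted p 0.000329), yet its p adjusted over all genes was 0.260. It was 0.105 when dark patches were sought with a smaller window and 0.761 with the pool block alone. Adjusted p was 0.792 for Otx2, 0.826 for Gbx2 and 0.895 for Dmbx1 in the paired limma fit. No gene passed here either, 0% called, with 1063 genes under an unadjusted 0.05. With the pool block alone, limma called 0 genes in every comparison, so the calls of the paired fit given further on also rest on its other choices.

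Without OHT, no difference between cells labelled knockout and wild type cells passed for these genes. The differences were -0.35 for Otx2, -0.39 for Gbx2, -0.24 for Hesx1, 0.35 for Dmbx1 and -0.41 for Gsc (log2, labelled knockout minus wild type, SE 0.28, 0.58, 0.62, 0.24 and 0.63). The test was limma over all genes (adjusted p 1.00 each, 0% of all genes called, 195 under an unadjusted 0.05). Otx2 was lower and Dmbx1 higher on both untreated labelled knockout arrays than on either wild type array. Groups without overlap in 2 of 5 genes stand against 20.9% of all genes in this comparison. For Gsc, 1 array of each group was not well above background. The Hesx1 difference turned to 0.07 within slide 1 and to 0.06 with slide as a block.

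After OHT, both labelled knockout arrays read lower than both wild type arrays in Hesx1 and Gsc, and the other 3 genes overlapped. Hesx1 was lower by 1.65 (log2 difference -1.65, SE 0.62, 95% interval -3.19 to -0.12, limma unadjusted p 0.0387, adjusted p 0.999). Gsc had a difference of -1.54 (SE 0.63, interval -3.10 to 0.01, limma unadjusted p 0.0513, adjusted p 0.999), all 4 OHT arrays being well above background for both genes. Neither passed over all genes (0% called, 344 under an unadjusted 0.05), and 2 of 5 genes without overlap, these same ones, compare with 24% of all genes. Within slide 1, which leaves pool A1 as the wild type, the differences were -1.35 for Hesx1 and -1.67 for Gsc, and with normexp they were -1.41 and -0.86. Otx2 differed by 0.05, Gbx2 by 0.07 and Dmbx1 by 0.19, with 95% intervals of -0.66 to 0.75, -1.36 to 1.50 and -0.40 to 0.78. These OHT arrays also entered the changes by which the genes were chosen.

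**Figure D3:**
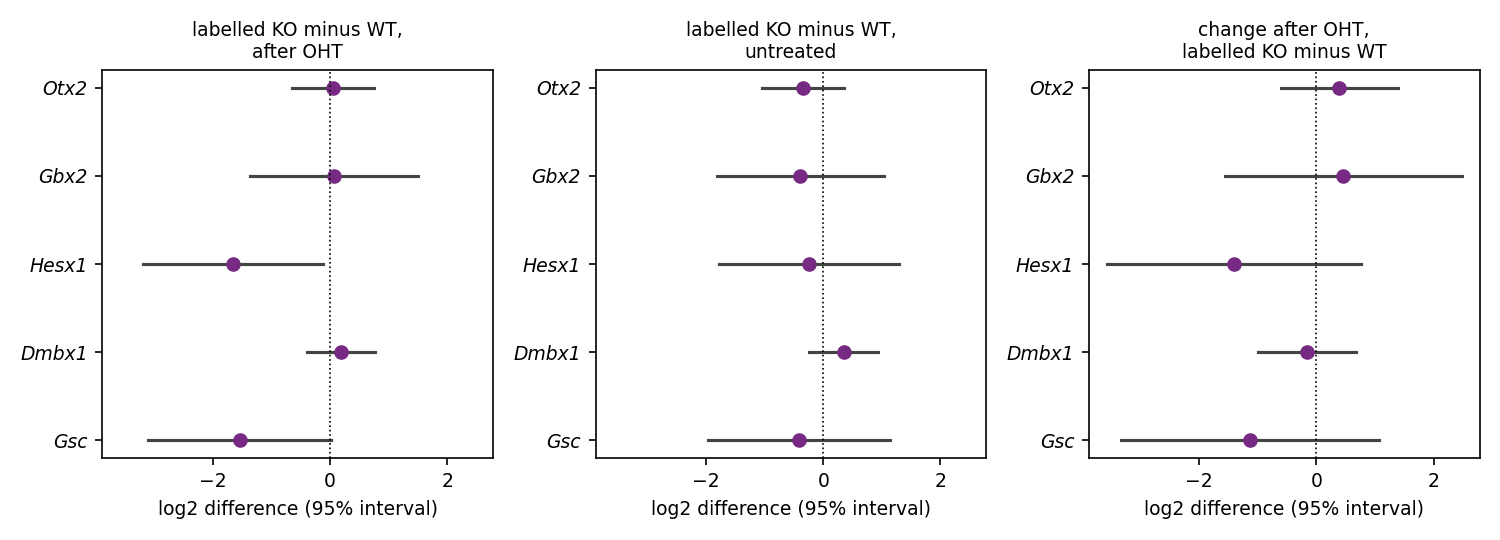
Differences between labelled knockout (KO) and wild type (WT) for each gene, after OHT, untreated, and in the change after OHT, as log2 differences with 95% intervals from limma on group means. The interval for Hesx1 after OHT, -3.19 to -0.12, lies below 0, the others include it, and for Gsc 1 untreated array of each genotype was not well above background.

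The 2 pools of the labelled knockout stood over 1 log2 unit apart in Hesx1 and Gbx2. Pool A2 was below pool B2 in Hesx1, by 1.28 after OHT (difference -1.28) and 1.34 untreated (difference -1.34), and in Gbx2 (differences -1.08 after OHT and -1.43 untreated). In Otx2 pool A2 was above pool B2 after OHT, by 0.77, and level with it untreated, by 0.08, and in Dmbx1 it was above by 0.42 and 0.38. In Gsc it was above by 0.57 after OHT and by 1.84 untreated, where pool B2 was not well above background. In the wild type, A1 minus B1 was -0.60 after OHT and -0.63 untreated in Hesx1, and between -0.49 and 0.72 for the other genes. Pool A2 is also the one low in Erf. For Hesx1, pool B2, whose Erf level was that of the wild type, had the same change as pool A2. The part of Erf level in any of these gaps was not tested.

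**Figure D4:**
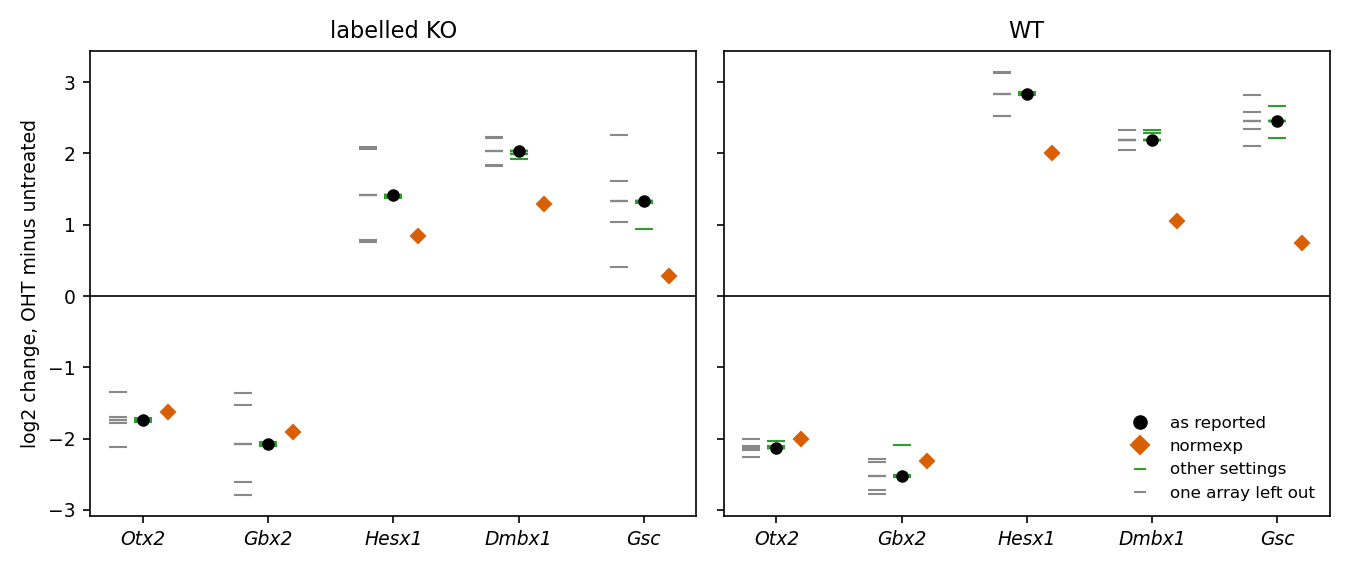
Mean change after OHT (log2) of each gene in the labelled knockout (KO, left) and the wild type (WT, right) as reported (black), with normexp background correction (orange), under the other processing settings (green) and with 1 array left out (grey). All values keep the sign by which the genes were chosen. Normexp lowers the change of Hesx1, Dmbx1 and Gsc, to 0.28 for Gsc in the labelled knockout.

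Each gene's profile over the 8 arrays, centred on its own mean, was set against those of 15078 other genes by the root mean square difference in log2 units, where a small value is a close match. Closest to Otx2 were Pde2a (0.29), a cyclic nucleotide phosphodiesterase, Etv1 (0.30), an ETS factor, and 2610528J11Rik (0.31). Gbx2 was nearest to Col6a5 (0.28), a collagen chain, Insc (0.31), which orients the mitotic spindle, and Tafa4 (0.43), a secreted protein. Hesx1 had Aqp3 (0.28), a water and glycerol channel, Mroh4 (0.38) and Xaf1 (0.41), Dmbx1 had the homeobox gene Tlx2 (0.36), Zbtb44 (0.37) and the small heat shock gene Hspb8 (0.39), and Gsc had Fam169b (0.43), the deiodinase gene Dio3 (0.43) and the potassium channel gene Kcnd3 (0.44). Aqp3 changed by 1.77 in the labelled knockout and 2.81 in the wild type, and Mroh4 by 1.30 and 2.68, which with normexp were only 0.04 and 0.18. Other nearest genes also depended on the settings. Over the alternatives the wild type change ranged from 0.05 to 2.25 for Kcnd3 and from -2.41 to -1.07 for Tafa4. That of Aqp3 ranged only from 2.80 to 2.91. The homeobox genes were not each other's nearest: Gbx2 was number 116 from Otx2 (0.64), and Otx2 number 27 from Gbx2. Gsc was number 445 from Dmbx1 (0.81), and Dmbx1 number 121 from Gsc. These are descriptions of 8 points that share arrays and pools.

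The lists of related genes below are read in the same OHT comparisons by the share of members called. With limma on group means 0 genes were called, 0% in both genotypes, with 611 genes in the labelled knockout (425 higher, 186 lower) and 923 in the wild type (439 higher, 484 lower) under an unadjusted 0.05. The paired fit called 3.21% of genes higher and 2.16% lower in the labelled knockout, and 6.02% higher and 6.63% lower in the wild type. The median change over all genes tested was 0.04 in the labelled knockout and -0.03 in the wild type. The share of all genes higher or lower by sign alone was not counted, so counts by sign below are descriptions without a background. Adjusted p-values below are from that paired limma fit, over all genes, and no gene of any list passed on the group means.

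Of 8 genes that act with OTX2 in the formative state, all tested, 3 were called lower after OHT in the labelled knockout and 4 in the wild type. Of all genes, 2.16% and 6.63% were called lower. Their median change was -0.81 in the labelled knockout and -1.24 in the wild type. By sign alone 7 of 8 were lower in the labelled knockout and all 8 in the wild type, the exception, named after its values were seen, being Zic2, a zinc finger factor, with 0.24 (adjusted p 0.940). Pou3f1, a POU factor of the epiblast, read 2.60 and 0.61 after OHT against 4.24 and 2.41 untreated in the labelled knockout, and 1.41 and 0.70 after OHT against 3.53 and 2.84 untreated in the wild type. It fell in both genotypes, with changes of -1.72 in the labelled knockout (adjusted p 0.00240) and -2.13 in the wild type (adjusted p 0.000368), the pools of a genotype running in parallel at different levels. Fgf5, a growth factor of the post-implantation epiblast, fell as well, by -1.53 in the labelled knockout (adjusted p 0.0199) and -1.65 in the wild type (adjusted p 0.00744). Tcf15, a basic helix-loop-helix factor, had -1.33 (adjusted p 0.00348) and -1.66 (adjusted p 0.000788) in labelled knockout and wild type cells. Foxd3, a forkhead factor, was the fourth called lower in the wild type, with -1.12 (adjusted p 0.00984), and had -0.56 in the labelled knockout (adjusted p 0.0884).

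Genes of anterior and midbrain-hindbrain patterning had positive median changes. Of 26 listed, 18 were tested, and the median change was 0.36 in the labelled knockout, with 14 of 18 genes higher, and 0.54 in the wild type, with 13 of 18 higher. Sfrp1, a secreted WNT antagonist, was the 1 gene called in the labelled knockout, where 3.21% of all genes were called higher. Sfrp1 was higher there by 1.70 (adjusted p 0.0240). It was higher by 2.29 in the wild type (adjusted p 0.00541). Its levels were -0.62 and 0.68 after OHT against -1.88 and -1.46 untreated in the labelled knockout, and 1.27 and 1.02 after OHT against -0.87 and -1.41 untreated in the wild type. In the wild type 6 genes were called higher, against 6.02% of all genes. Besides Sfrp1 these included Sfrp5, of the same family, the LIM homeobox genes Lhx2 and Lhx5, and the Iroquois gene Irx3. Sfrp5 had changes of 0.38 and 1.28 (adjusted p 0.326 and 0.0179) and Lhx5 of 0.78 and 1.15 (adjusted p 0.128 and 0.0404), in labelled knockout and wild type cells. Irx3 changed by 0.86 in the labelled knockout (adjusted p 0.0609) and 1.94 in the wild type (adjusted p 0.00419), and Lhx2 by 0.67 (adjusted p 0.113) and 1.57 (adjusted p 0.00888). With normexp the wild type changes were 0.55 for Lhx2, 1.06 for Irx3, 0.72 for Sfrp5 and 0.15 for Lhx5, and those in the labelled knockout 0.37, 0.52, 0.18 and 0.44. No gene of the list passed the test as lower in either genotype, but 4 of 18 had a lower mean in the labelled knockout and 5 in the wild type. The furthest of these, named after its values were seen, was En2, a homeobox gene of midbrain and hindbrain, with changes of -0.59 and -0.49 (adjusted p 0.0528 and 0.0554) in labelled knockout and wild type cells.

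Of 24 other paired-like homeobox genes listed, 13 were tested. Their median change was 0.49 in the labelled knockout, with 11 of 13 higher and 0 called, and 0.28 in the wild type, with 8 of 13 higher and 2 called. Of all genes, 5.37% and 12.6% were called in either direction. In the wild type Pitx1, a factor of pituitary and hindlimb, rose by 1.64 (adjusted p 0.0223) and Phox2a, a factor of autonomic neurons, fell by 0.52 (change -0.52, adjusted p 0.0434). Pitx1 had a mean change of 0.62 in the labelled knockout (adjusted p 0.256), which turned to -0.42 without the OHT array of pool A2. Rax, an eye field gene, had changes of 0.49 and 1.42 (adjusted p 0.569 and 0.120), in labelled knockout and wild type cells. With normexp the changes in the wild type were 0.64 for Pitx1 and 0.24 for Rax, and within slide 1 Rax had 0.47.

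The Groucho corepressors, through which HESX1 and GSC repress, changed in both directions. All 6 on the array were tested, with medians of 0.15 in the labelled knockout and 0.17 in the wild type. None was called in the labelled knockout, while in the wild type 2 were called higher and 1 lower, against 6.02% and 6.63% of all genes. In the wild type Tle3 rose by 0.71 (adjusted p 0.0114) and Tle6 by 0.56 (adjusted p 0.0108), while Tle4 fell, with -0.83 (adjusted p 0.0129). In the labelled knockout their changes were 0.18, 0.20 and -0.39 (adjusted p 0.325, 0.193 and 0.121).

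LIF and STAT3 targets, among which Gbx2 counts in mouse embryonic stem cells, had medians near 0. All 8 were tested, 0 were called in either genotype, and the median changes were -0.09 in the labelled knockout and -0.18 in the wild type. Tfcp2l1, a factor of the naive state, changed by 1.20 in the labelled knockout and 1.41 in the wild type (adjusted p 0.109 and 0.0667), opposite to Gbx2. Klf4 changed by 0.83 and 0.97 (adjusted p 0.275 and 0.208), and Klf5 by -0.38 and -0.73 (adjusted p 0.547 and 0.298), the wild type change being -0.22 within slide 1.

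Nodal signalling, which induces Gsc in the embryo, was read from 10 genes, all tested, with medians of 0.08 in the labelled knockout and 0.06 in the wild type. Tdgf1 (Cripto), the Nodal co-receptor, fell in both genotypes, with -0.48 in the labelled knockout (adjusted p 0.0484) and -0.97 in the wild type (adjusted p 0.00402), where the mean of all its probes gave -0.26 and -0.89. Nodal itself rose by 0.45 in the wild type (adjusted p 0.0211), with 0.18 in the labelled knockout (adjusted p 0.225), and its wild type change was -0.04 without the OHT array of pool A1. The Nodal antagonists Lefty2, with 1.26 and 1.44 (adjusted p 0.111 and 0.0718), and Lefty1, with 1.17 and 1.18 (adjusted p 0.137 and 0.116), had the largest changes of the list in labelled knockout and wild type cells, and neither passed.

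**Figure D5:**
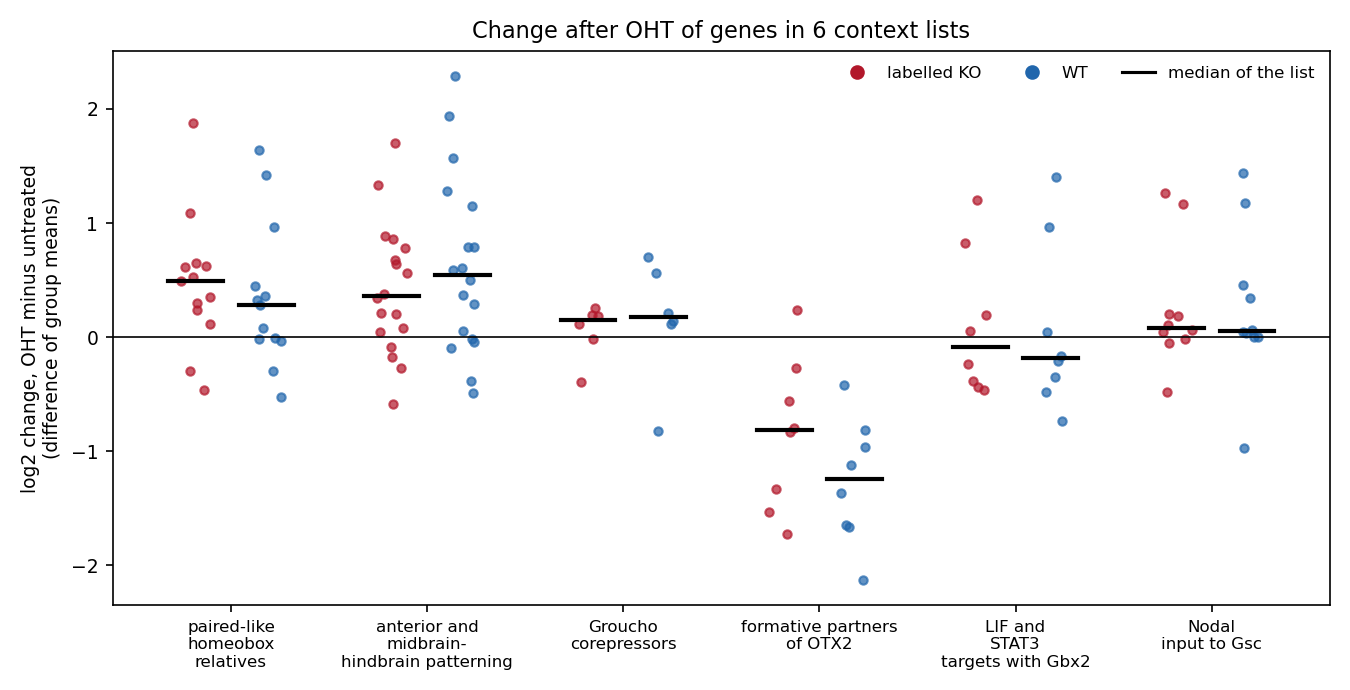
Change after OHT (log2, difference of group means) of every tested gene of the 6 lists in the labelled knockout (KO, red) and the wild type (WT, blue), spread sideways for legibility, with the median of each list as a bar. The formative partners of OTX2 have medians of -0.81 and -1.24, and the anterior patterning genes of 0.36 and 0.54.

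The genes next to the 5 homeobox genes on their chromosomes were read as well. For each, these were the nearest 2 tested genes on either side. In the paired limma fit 0 of the 20 neighbours were called in the labelled knockout, against 5.37% of all genes in either direction, and 2 in the wild type, against 12.6%, so the neighbours were not called more often than other genes. By sign, both labelled knockout pools were opposite to both wild type pools in 4 of the 20, and in 7.51% of all genes. Beside Gbx2, Ackr3, a scavenging chemokine receptor, rose by 1.76 in the wild type (adjusted p 0.00177) and had a change of 0.48 in the labelled knockout (adjusted p 0.0835), opposite in sign to Gbx2. Beside Hesx1, Il17rd, an inhibitor of FGF and ERK signalling, fell by 0.71 in the wild type (adjusted p 0.00882), with 0.12 in the labelled knockout (adjusted p 0.489). The neighbours of Otx2 had changes of -0.02 to 0.53 in the labelled knockout and -0.51 to 0.11 in the wild type, and those of Dmbx1 of -0.13 to 0.37 and -0.27 to 0.19. Clmn, beside Gsc, had 1.09 in the labelled knockout and 0.92 in the wild type (adjusted p 0.0628 and 0.0688), and 0.50 and 0.19 with normexp.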

How the data were processed

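Per the labels, 8 total RNA samples carried Cy3, with 1 array a sample. Per the file headers, the scanner files that the authors deposited give the intensity of each spot from Agilent Feature Extraction (version 11.5.1.1): the processed signal is background-subtracted and detrended within an array but not scaled between arrays. The median pixel intensity of spot and local background, also deposited by the authors, entered normexp (offset 50). The authors' own normalisation and tests are not stated in those headers or labels.

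Of 62976 spots 59305 were no controls. Outlier-flagged spots were left out, spots of a probe averaged, and log2 of the processed signal minus the array's 75th percentile taken. Accessions were named through a RefSeq table (assembly GRCm38.p6), which also gave the order of neighbours: 28020 of 55681 probes matched 21150 genes. The promoter windows came from RefSeq starts on the same assembly. A probe was tested if well above background on both arrays of a group, and the brightest probe of a gene was kept (3970 genes had several, the 5 homeobox genes 1 each), leaving 15178 genes.

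limma 3.58.1 in R 4.3.3 (lmFit, eBayes, two-sided, Benjamini-Hochberg over all genes, threshold 0.05) compared 4 group means in 5 comparisons and was tested on simulated data. Pools pair the arrays within a genotype, per the source names. Deviations from group means correlated at 0.443 between the labelled knockout groups and 0.658 between the wild type groups, against 0.226 to 0.508 across genotypes, where only a pool letter is shared. The paired fit adds the pool block, leaves out dark patches (local median of 15 by 15 spots below -0.5) and uses trended, robust variance. The labels call the replicates biological, so p-values measure the spread between pools of 2 clones each.

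The genes, lists and comparisons were chosen with earlier results of these data known. Genes named are the 5 homeobox genes, the 3 with the largest mean change of each list, called members of small counts, the 3 nearest profiles and the 2 neighbours on either side of each gene, plus Erf. A few of the genes so chosen are left out here. The patches from a smaller window, 5 by 5 spots grown by 2, were added after the data were seen. Figures were made with matplotlib 3.10.9 in Python 3.11.15.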

Additional observations from a re-analysis of the deposited data

Results flagged for a closer look

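In 4 genes next to Otx2, Gbx2 or Hesx1 on the chromosome, the changes after OHT in both labelled knockout pools were opposite in sign to those in both wild type pools. These are 4 of 20 neighbours read, against 7.51% of all genes. Beside Otx2, Tmem260 changed by 0.38 and 0.69 in the labelled knockout and by -0.64 and -0.38 in the wild type, a difference of 1.05 (limma unadjusted p 0.0115, adjusted p 1.00). Exoc5, also beside Otx2, changed by 0.16 and 0.14 against -0.07 and -0.11, a difference of 0.24. Beside Gbx2, Asb18, well above background on 7 arrays, changed by 0.20 and 0.95 against -0.48 and -0.98, a difference of 1.31. Beside Hesx1, Il17rd changed by 0.23 and 0.005 against -0.81 and -0.61, a difference of 0.83 (limma unadjusted p 0.0366), the change in pool B2 being close to 0. For none of these did the difference pass over all genes, with adjusted p of 1.00 on the group means and 0.301 to 0.756 in the paired limma fit.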

How the results depend on the processing

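The direction of each homeobox gene's change after OHT was the same under all alternatives and with any 1 array left out. The genes were chosen by that direction on these arrays, so its constancy is no independent support. Normexp lowered the changes in the wild type to 2.01 for Hesx1, 1.05 for Dmbx1 and 0.74 for Gsc, and within slide 1 Gbx2 was at -2.09 and Dmbx1 at 2.33 there. Genotype differences close to 0 turned: the Dmbx1 difference of changes to 0.25 and its untreated difference to -0.0601 with normexp, untreated Gsc to 0.0211 with quantile normalization, untreated Hesx1 to 0.0642 with slide as a block and 0.0706 within slide 1, and Gbx2 after OHT to -0.13 within slide 1; the cause was not tested. With single arrays left out, differences ran from 0.006 to 0.78 (Otx2), -0.26 to 1.17 (Gbx2), -2.08 to -0.74 (Hesx1), -0.37 to 0.0492 (Dmbx1) and -2.05 to -0.21 (Gsc) for the changes, from -1.10 to 0.33 (Gbx2), -0.91 to 0.43 (Hesx1) and -1.34 to 0.51 (Gsc) untreated, and from -0.34 to 0.43 (Otx2), -0.47 to 0.61 (Gbx2) and -0.0206 to 0.40 (Dmbx1) after OHT. In the labelled knockout the same ranges of change were -0.42 to 1.67 for Pitx1, -0.12 to 0.49 for Tle3, -0.26 to 0.65 for Tle6, -0.17 to 1.83 for Klf4, -0.0156 to 0.98 for Ackr3 -0.0937 to 0.33 for Il17rd, -0.0945 to 1.66 for Lhx5, -0.34 to 0.70 for Nodal and -0.49 to 0.96 for Zic2, and in the wild type -0.0446 to 0.95 for Nodal.

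Counts of genes called in the wild type were 0 on the group means, 6 with only probes above background on all arrays, 3 with trended, robust variance and 12 with array weights. With the replicate block, dark patches left out and that variance they were 815 in the labelled knockout and 1919 in the wild type, or 1662 and 2648 with smaller-window patches, while the replicate block alone gave 0 in every comparison. Taking the shared letter A or B as a block between genotypes, the combined fit gave Hesx1 after OHT an unadjusted p of 0.000921 and an adjusted p of 0.438 (limma), and Gsc 0.0162 and 0.582. Pools of different genotypes share only that letter, and the deviations of the OHT groups correlated at 0.314. These p-values rest on that block and on the other choices of the combined fit. Leaving out 1 array gave 0 to 383 calls in the labelled knockout, 0 to 29 in the wild type, 0 to 321 for the difference, 0 to 21 untreated and 0 to 386 after OHT. With 2 arrays a group, and Dmbx1 and Gsc near background, the size of their changes is uncertain, and their sign is the one by which they were chosen.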
